A study of Mus musculus with 4 samples.

Results

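The genes described here are the mouse Wnt ligands (19 genes), the Frizzled receptors (10 genes), the LDL receptor-related co-receptors Lrp5 and Lrp6, the receptors Ror1, Ror2 and Ryk, and Porcn and Wls, which lipidate and carry Wnt proteins. They were picked by gene symbol, with earlier results of these data known, and made up 36 of the 22180 genes named by a probe set with a single symbol. Expression was measured in skeletal stem cells (SSCs), the self-renewing precursors of bone, cartilage and marrow stroma, isolated from mice 4 to 6 weeks old. The wild-type group carried both intact copies of Mmp14 (Mmp14+/+, 2 arrays) and the knockout group neither (Mmp14-/-, 2 arrays). Cells of both groups were kept for 48 h inside a 3D collagen gel before RNA extraction. The labels do not give the strain, the part of Mmp14 that was deleted, or whether arrays 1 and 2 of a group came from separate animals or cultures. P-values therefore measure only the spread between these arrays, which may be technical.

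Wnt proteins are secreted lipid-modified ligands. Porcupine (Porcn) attaches the lipid, Wntless (Wls) carries the ligand to the cell surface, and the lipid docks into the cysteine-rich domain of a Frizzled. With Lrp5 or Lrp6 as partner the complex stabilises beta-catenin, which acts with TCF/LEF factors on target genes. With Ror or Ryk receptors, ligands such as Wnt5a signal to the cytoskeleton and cell polarity, and often dampen the beta-catenin branch. In bone, Wnt signalling through Lrp5 is known for its control of bone mass.

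Mmp14, which encodes the membrane collagenase MT1-MMP, read 8.77 and 8.83 log2 in wild type against 5.77 and 5.84 in knockout, so it fell by 2.99 log2 (SE 0.10, limma adjusted p = 0.000278). All values are deposited log2 intensities, differences are knockout minus wild type on that log2 scale, and a gene was called when its limma adjusted p was below 0.05. Of 18 tested markers of skeletal stem and stromal cells, 6 rose, 2 fell and 10 were not called, against 6.2% higher and 5.12% lower of all tested genes. Cxcl12 (1.81) and Pdgfra (1.77) were up most, and Lepr (−2.26) and Alpl (−1.76) were down. Levels of these 18 markers ran from Cd200 at 2.72 log2 in 1 wild-type array to Col1a1 at 11.62, and Prrx1 lay between 10.14 and 10.22 in all arrays. Of 69 markers of 9 other cell classes, 42 lay under the filter on dim genes in both groups, among them the leukocyte gene Ptprc and the endothelial gene Cdh5. Others were brighter, such as Acta2 (11.36 to 11.57 log2) and Tagln (9.35 to 9.61) of the pericyte and smooth muscle list. The osteoclast gene Acp5 read 4.95 to 5.69 and the leukocyte gene Cd68 4.38 to 4.73. Of 24 tested, 1 rose, 2 fell and 21 were not called, a share of calls near the 11.3% of all tested genes. The satellite cell gene Pax7 rose (1.31), and the pericyte gene Rgs5 (−1.07) and the neural adhesion gene Ncam1 (−0.81) fell. No other gene of their lists was called, and Myod1 and Myog lay under the filter in both groups. A second probe set of Rgs5, dim at 1.44 to 1.59 log2, differed by −0.07. The mean log2 level of the skeletal muscle list was 2.67 to 2.70 in wild type and 2.81 to 2.92 in knockout, that of the pericyte and smooth muscle list 5.08 to 5.17 and 4.89 to 5.03, and that of the Schwann and neural list 3.59 to 3.85 and 3.56 to 3.76. The sex-linked genes Xist (0.73) and Eif2s3y (−0.69) were also called, but Eif2s3y not on leaving out the first wild-type array (limma adjusted p = 0.107) or the first (0.176) or second (0.0648) knockout array, and Xist not on leaving out the first knockout array (0.0801). The other 2 tested sex-linked genes, Kdm5d (−0.42, limma adjusted p = 0.104) and Uty (−0.25, 0.520), were not called. Over the 4 arrays Xist read 8.45 to 9.30 log2 and Eif2s3y 5.19 to 6.18. The part of these marker and sex-linked shifts in the results was not tested.

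Of the 36 genes, 25 were bright enough to be tested, that is, the mean of the 4 arrays reached 2.34 log2, the median of the whole table. Among them 10 were called, 6 higher and 4 lower in knockout, against 11.3% of all 12708 tested genes (6.2% higher and 5.12% lower). The genes that rose were Wnt5a, Fzd4, Fzd5, Fzd9, Lrp5 and Lrp6. Those that fell were Fzd1, Fzd6, Fzd7 and Wnt11. Of the calls, 5 increases and 1 decrease were at least 2-fold, against 3.51% of all tested genes. Knockout and wild-type arrays were fully separated in each of the 10, and in 18 of the 25, against 57.8% of all tested genes. The median difference of the 25 was −0.06, against −0.0041 over all tested genes, and the median size of a difference regardless of sign was 0.46 against 0.18. These are bulk arrays, in which fewer cells of a type and less RNA per cell cannot be told apart.

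**Figure D1:**
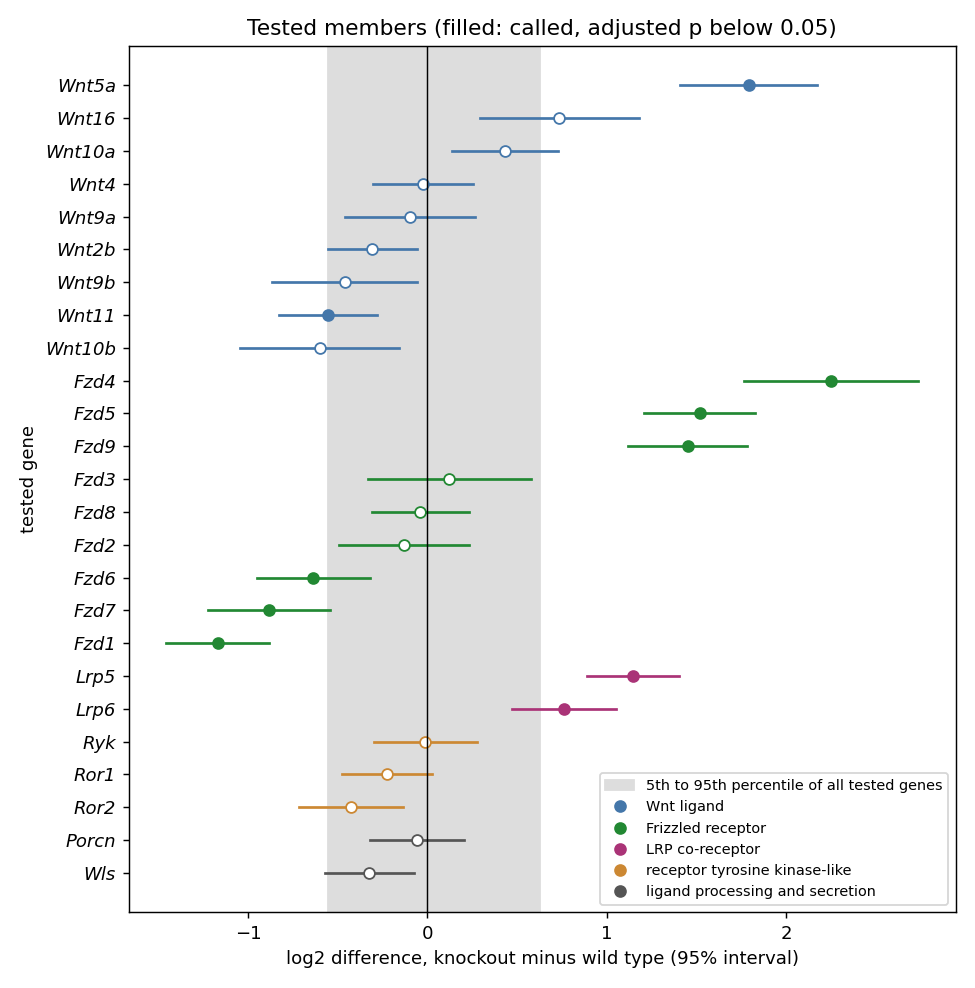
Log2 difference, knockout minus wild type, with its 95% limma interval for the 25 tested genes, coloured by role and filled where called. The grey band spans the 5th to 95th percentile of all 12708 tested genes (−0.55 to 0.63). Fzd4, Wnt5a, Fzd5, Fzd9 and Lrp5 lie wholly to the right of it and Fzd1 wholly to the left.

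The Frizzled receptors split into genes that rose and genes that fell. Of 10, 9 were tested, 3 rose, 3 fell and 3 were not called, against 6.2% higher and 5.12% lower of all tested genes. For the 5 called Frizzleds with an entry in the RefSeq promoter table (GRCm38.p6), the 250 bases before the annotated start are shown to set the genes that rose (Fzd4, Fzd5, Fzd9) beside those that fell (Fzd1, Fzd7). They lie at chr7:89404116-89404365 (plus strand), chr1:64737751-64738000 (minus strand), chr5:135251048-135251297 (minus strand), chr5:4758217-4758466 (minus strand) and chr1:59481897-59482146 (plus strand), each written 5′ to 3′ on the gene's strand. Capitals mark GGGCGG, the GC box bound by Sp and KLF factors, on either strand, and adjoining or overlapping matches run together.
Fzd4: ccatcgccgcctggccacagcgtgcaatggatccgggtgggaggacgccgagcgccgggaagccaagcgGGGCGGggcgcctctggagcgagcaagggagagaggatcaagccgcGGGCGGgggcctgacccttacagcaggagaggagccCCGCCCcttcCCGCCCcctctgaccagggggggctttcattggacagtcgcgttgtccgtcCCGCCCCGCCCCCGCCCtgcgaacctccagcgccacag
Fzd5: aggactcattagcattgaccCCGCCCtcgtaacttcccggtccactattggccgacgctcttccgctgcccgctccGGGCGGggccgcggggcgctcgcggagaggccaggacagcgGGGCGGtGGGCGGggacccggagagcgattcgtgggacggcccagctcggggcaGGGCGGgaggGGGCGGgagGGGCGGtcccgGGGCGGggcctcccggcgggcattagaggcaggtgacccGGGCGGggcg
Fzd9: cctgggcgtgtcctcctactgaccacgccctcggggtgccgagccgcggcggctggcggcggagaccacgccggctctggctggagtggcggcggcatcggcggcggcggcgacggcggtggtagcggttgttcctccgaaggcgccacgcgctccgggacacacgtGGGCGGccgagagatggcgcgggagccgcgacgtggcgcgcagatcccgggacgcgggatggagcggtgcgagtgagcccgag
Fzd1: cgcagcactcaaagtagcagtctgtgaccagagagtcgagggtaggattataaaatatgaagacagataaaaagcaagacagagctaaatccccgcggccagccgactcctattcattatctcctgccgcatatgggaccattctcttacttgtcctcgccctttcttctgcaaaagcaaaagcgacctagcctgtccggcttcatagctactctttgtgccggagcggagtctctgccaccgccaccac
Fzd7: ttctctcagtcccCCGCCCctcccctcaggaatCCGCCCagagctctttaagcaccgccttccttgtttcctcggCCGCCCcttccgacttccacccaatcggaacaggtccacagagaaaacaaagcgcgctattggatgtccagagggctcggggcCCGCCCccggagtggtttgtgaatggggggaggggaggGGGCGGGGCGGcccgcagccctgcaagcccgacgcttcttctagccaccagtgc
The GC box occurred 7 times for Fzd4, 9 times for Fzd5, once for Fzd9, 0 times for Fzd1 and 6 times for Fzd7, and at least once in 32.7% of all 32851 promoter windows of that length. The windows held 25 (Fzd4), 32 (Fzd5), 42 (Fzd9), 12 (Fzd1) and 17 (Fzd7) CG dinucleotides, against a median of 6 over all windows. Windows of members without a call ran from 4 CG dinucleotides and 0 GC boxes (1 window of Wnt5b) to 48 and 5 (Wnt9a). Wnt4, also not called, held 44 and 8, so high counts were not particular to the called Frizzleds. The letters CTTTGAT and CTTTGAA, forms of the TCF/LEF site, were searched on both strands and stood in none of the 5 windows, and in 3.21% and 4.46% of all windows. Nor did the 5 windows hold the TEAD letters GGAATG (12.6% of all windows) or the AP-1 letters TGANTCA (6.75%). A match is only a run of letters in this window. Windows were matched for 25 of the 36 genes, 28 windows in all, and those of Fzd6, Wnt5a, Lrp5 and Lrp6 were not used here. Among the 28, CTTTGAT stood once in 1 of the 2 windows of Wnt11 and once in 1 of the 3 of Wnt5b.

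Fzd4, which encodes the receptor for norrin as well as for Wnts, had the largest rise of the 25 genes and ranked 31st of all tested genes by increase. It was measured at 2.30 and 2.89 log2 in wild type, against 4.82 and 4.86 in knockout, a difference of 2.25 log2 (SE 0.20, limma adjusted p = 0.0023). Both knockout arrays stood at least 1.93 log2 above both wild-type arrays. The wild-type values lay close to the 2.34 log2 filter, which leaves the size of the change less certain than its direction. Fzd9, a receptor gene known in osteoblasts, was measured at 2.62 and 2.48 in wild type, against 3.86 and 4.14 in knockout, a rise of 1.45 log2 (SE 0.14, limma adjusted p = 0.0028), again from a dim wild-type signal. Fzd5, a receptor able to work through both the beta-catenin and the polarity branch, had a clear wild-type signal of 4.32 and 4.38 log2. Its knockout values were 6.00 and 5.74, 1.52 log2 or 2.86-fold higher (SE 0.13, limma adjusted p = 0.0020). The wild-type arrays of Fzd5 differed by less than the knockout arrays, and the groups were 1.36 log2 apart at their nearest.

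Among the receptors that fell, Fzd1 was measured at 8.51 and 8.30 log2 in wild type, against 7.27 and 7.21 in knockout. It fell by 1.17 log2, 2.25-fold lower (SE 0.12, limma adjusted p = 0.0035), with both knockout arrays below both wild-type arrays by at least 1.03. Fzd7, a close relative of Fzd1 and Fzd2, was measured at 7.67 and 7.97 in wild type, against 7.01 and 6.85 in knockout. It fell by 0.88 log2 (SE 0.14, limma adjusted p = 0.0143). Fzd6, a receptor tied to polarity signalling, was measured at 6.98 and 7.13 in wild type, against 6.30 and 6.54 in knockout, a fall of 0.64 log2 (SE 0.13, limma adjusted p = 0.0314). Fzd6 lost its limma call when any of 3 arrays was left out, namely the first (adjusted p = 0.0549) or second (0.102) of wild type or the first of knockout (0.148). When all probe sets were fitted together without a filter, none of Fzd1 (limma adjusted p = 0.0553), Fzd7 (0.115) and Fzd6 (0.182) was called, whereas Fzd4, Fzd5 and Fzd9 were. With only the filter dropped and 1 probe set per gene, Fzd1 (limma adjusted p = 0.0043), Fzd7 (0.0194) and Fzd6 (0.0465) stayed called.

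Fzd2, the third member of the Fzd1 and Fzd7 subgroup, was measured at 7.00 and 6.97 log2 in wild type, against 6.67 and 7.05 in knockout. Its difference was −0.13 (95% interval −0.49 to 0.23), with overlapping groups. Fzd8, at 6.85 and 6.98 in wild type, against 6.82 and 6.93 in knockout, differed by −0.04 (−0.31 to 0.23). Fzd3, a polarity receptor gene best known from axon guidance, differed by 0.12 (−0.33 to 0.58), and its 2 wild-type arrays were 0.43 log2 apart. The intervals of Fzd2 and Fzd8 leave out falls of 1 log2, while Fzd10 stayed under the filter at 1.19 to 1.49 log2 and was not tested. Within an array, where a constant offset between arrays cancels, the log2 value of Fzd5 minus that of Fzd7 went from −3.34 and −3.59 in wild type to −1.01 and −1.12 in knockout, a shift of 2.40 log2. The same quantity for Fzd1 minus Fzd2 went from 1.51 and 1.33 to 0.61 and 0.16, a shift of −1.04. These shifts restate the differences above and add no test. Probe sequences were not used here, and cross-hybridisation between related Frizzleds was not tested.

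**Figure D2:**
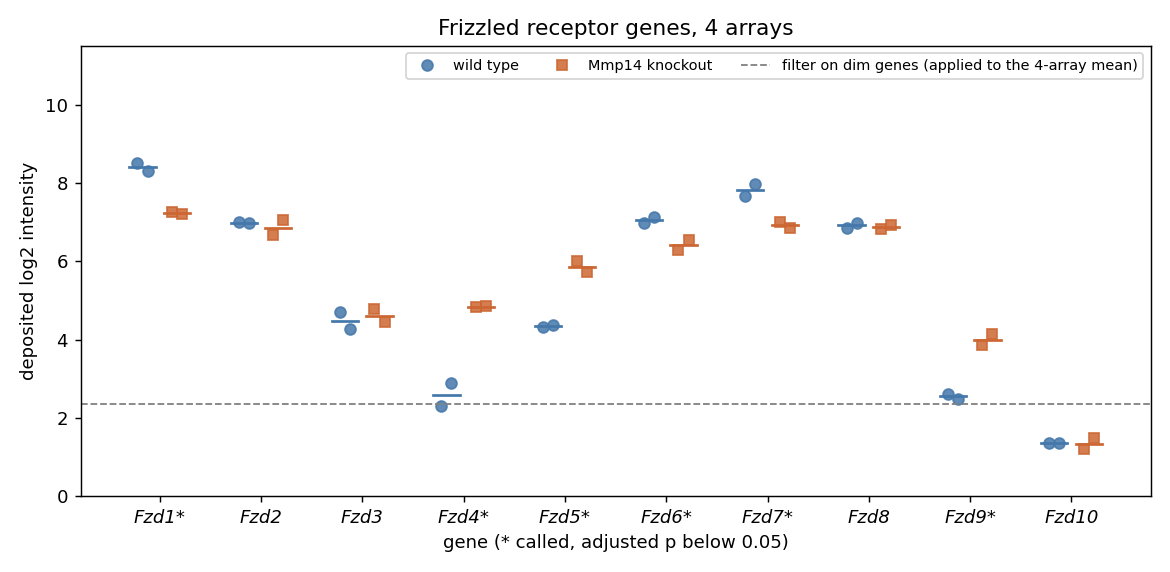
Deposited log2 intensity of the 10 Frizzled genes in each array (blue circles wild type, orange squares Mmp14 knockout), with a short line at each group's mean. The dashed line is the 2.34 log2 filter. Fzd4, Fzd5 and Fzd9 are higher in both knockout arrays, Fzd1, Fzd6 and Fzd7 lower, and Fzd4 and Fzd9 start near the dashed line.

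Of the 19 Wnt ligand genes, 9 were tested, 1 rose, 1 fell and 7 were not called, against 6.2% higher and 5.12% lower of all tested genes. With so few genes tested, this count sets no share for the ligands. Wnt5a, the archetype of the ligands that act on polarity and calcium, was measured at 5.40 and 5.30 log2 in wild type, against 7.34 and 6.94 in knockout. It rose by 1.79 log2 or 3.46-fold (SE 0.16, limma adjusted p = 0.0022) and ranked 72nd of all tested genes by increase. The lower knockout array stood 1.54 log2 above the higher wild-type array. Wnt5b, its closest relative, lay under the filter at 2.42 and 2.17 in wild type, against 1.91 and 2.23 in knockout, with overlapping groups.

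Wnt11, another ligand of the polarity branch, was measured at 3.49 and 3.63 log2 in wild type, against 3.06 and 2.96 in knockout. It fell by 0.55 log2 (SE 0.11, limma adjusted p = 0.0313). That limma call was lost on leaving out the second wild-type array (adjusted p = 0.0984) or the first (0.0973) or second (0.137) knockout array, with the replicate number as a block (0.066), and with every probe set in 1 fit (0.178). Wnt16, a ligand known for maintaining cortical bone, was measured at 3.80 and 3.29 in wild type, against 4.33 and 4.23 in knockout. Its difference of 0.73 (SE 0.18) just missed the call (limma adjusted p = 0.0549). It passed in 4 of 12 alternatives, among them a fit that left only 1 wild-type array. Wnt10b, which favours osteoblast over fat cell formation, was at 3.94 and 3.56 in wild type, against 2.97 and 3.33 in knockout. Its difference was −0.60 (95% interval −1.04 to −0.16, limma adjusted p = 0.0916), and the groups did not overlap.

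Wnt10a, a relative of Wnt10b, differed the other way, at 2.61 and 2.42 log2 in wild type, against 3.02 and 2.88 in knockout (0.43, limma adjusted p = 0.0749). Wnt2b was at 2.96 and 2.97 in wild type, against 2.69 and 2.62 in knockout (−0.31, limma adjusted p = 0.112). Wnt9b had a difference of −0.46 (limma adjusted p = 0.138). Its only call in 12 alternatives came from a fit that left 1 wild-type array. Wnt9b passed the filter through its wild-type arrays (2.87 and 2.41), while both knockout arrays (2.17 and 2.19) lay under it. Wnt4 (−0.03, 95% interval −0.30 to 0.25) and Wnt9a (−0.10, −0.46 to 0.26) had overlapping groups.

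Under the filter lay 10 ligand genes, Wnt1, Wnt2, Wnt3, Wnt3a, Wnt5b, Wnt6, Wnt7a, Wnt7b, Wnt8a and Wnt8b. With Fzd10 these 11 genes ranged from 1.19 to 2.47 log2 over all arrays, and their group means differed by −0.27 to 0.24. Wnt1 and Wnt3a, the ligands most used to switch on beta-catenin, were at 1.69 to 1.92 and 1.77 to 2.16. Signal that low sets no level, since detection calls were not used here. The nearest genes to the filter were Wnt7b (mean 2.27) just outside and Wnt9b (2.41) just inside. In the RefSeq annotation 4 pairs of ligand genes are direct neighbours among protein-coding genes, Wnt6 with Wnt10a, Wnt3a with Wnt9a, Wnt9b with Wnt3 and Wnt10b with Wnt1. In each pair 1 gene was tested and its neighbour lay under the filter. None of the 4 tested was called, against 11.3% of all tested genes, and so few genes set no share.

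**Figure D3:**
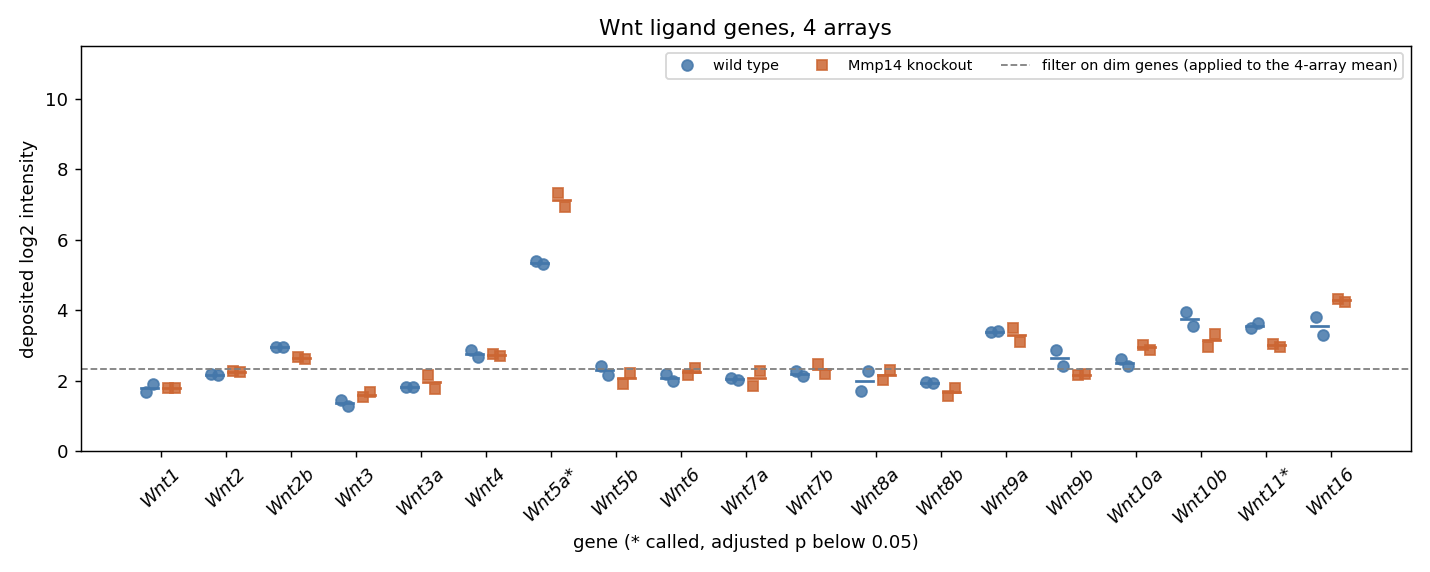
Deposited log2 intensity of the 19 Wnt ligand genes in each array, drawn as for the Frizzleds. Wnt5a is higher in both knockout arrays (6.94 and 7.34) than in wild type (5.30 and 5.40), and 10 ligands have a mean of 4 arrays under the dashed 2.34 log2 line.

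Both Lrp co-receptor genes rose, against 6.2% of all tested genes, though 2 genes are too few to set a share. Lrp5 was measured at 6.23 and 6.16 log2 in wild type, against 7.40 and 7.29 in knockout, 1.15 log2 or 2.21-fold higher (SE 0.11, limma adjusted p = 0.0026). Its groups were 1.06 log2 apart at their nearest, against gaps of at most 0.10 between arrays of a group. Lrp6 was measured at 8.82 and 8.68 in wild type, against 9.60 and 9.42 in knockout, a rise of 0.76 log2 (SE 0.12, limma adjusted p = 0.0140). Its limma call was lost on leaving out the second wild-type array (adjusted p = 0.0509) or the first knockout array (0.0698), and with every probe set in 1 fit (0.111). Lrp6 was the only one of the 36 genes with a second probe set, which was dim (2.62 and 2.69 for wild type, 3.16 and 2.85 for knockout) and differed by 0.35. Within an array, Lrp5 minus Lrp6 shifted by 0.39 log2.

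None of the receptors Ror1, Ror2 and Ryk was called, against 11.3% of all tested genes, and 3 genes are too few to set a share. Ror2, the kinase-like receptor through which Wnt5a acts in the limb skeleton, was measured at 6.69 and 6.83 log2 in wild type, against 6.25 and 6.42 in knockout. Its difference was −0.43 (SE 0.12, 95% interval −0.71 to −0.14, limma adjusted p = 0.0732), without overlap between the groups. It was called when dim genes were filtered more strictly (limma adjusted p = 0.0239) or with trend and robust variance (0.0287). Its ligand gene Wnt5a thus rose by 1.79 while Ror2 itself differed by −0.43, and Wnt5a minus Ror2 shifted by 2.21 log2 within the arrays. Ror1, at 5.61 and 5.56 in wild type, against 5.39 and 5.33 in knockout, differed by −0.22 (−0.47 to 0.03). Ryk, a receptor with an inactive kinase domain, was at 9.04 and 8.82 in wild type, against 8.91 and 8.93 in knockout, a difference of −0.01 (−0.30 to 0.27).

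Of the genes for making and releasing the ligands, Wls was measured at 9.47 and 9.45 log2 in wild type, against 9.11 and 9.17 in knockout. Its difference of −0.32 (SE 0.10, 95% interval −0.57 to −0.07) was not called (limma adjusted p = 0.101), although the groups did not overlap. It was called under the stricter filter (limma adjusted p = 0.042) and with trend and robust variance (0.0132). Porcn was at 6.47 and 6.51 in wild type, against 6.36 and 6.49 in knockout, with a difference of −0.06 (−0.32 to 0.20) and overlapping groups. Over the 15 tested genes that were not called, the groups did not overlap in 8. Over all tested genes, called ones included, that share was 57.8%.

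**Figure D4:**
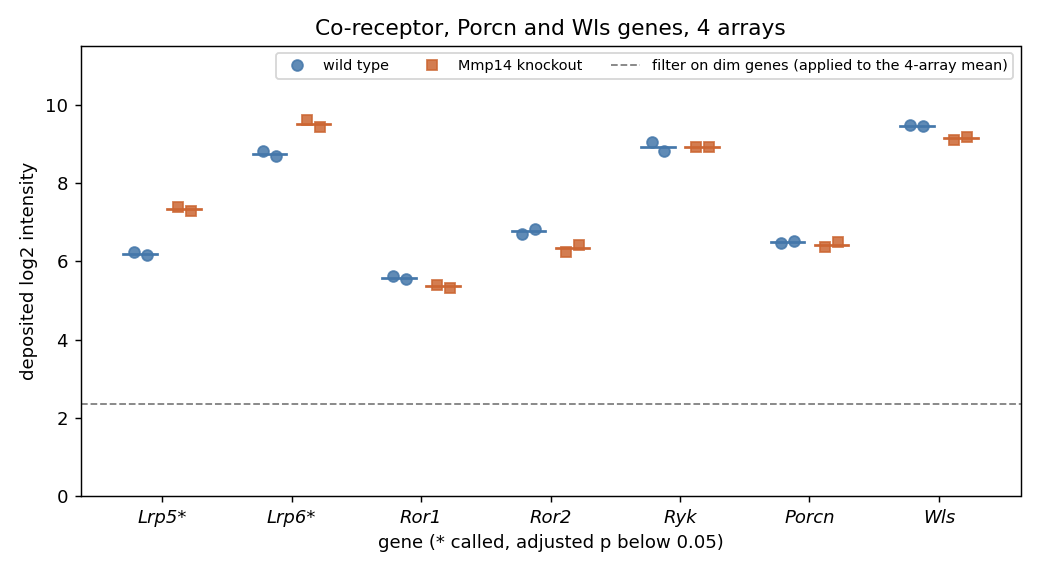
Deposited log2 intensity of the co-receptor genes, Porcn and Wls in each array, drawn as for the Frizzleds. Lrp5 and Lrp6 are higher in both knockout arrays, and the knockout means of Ror2 and Wls lie lower by 0.43 and 0.32 log2 without a call.

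Around these receptors, 7 further Wnt pathway lists held 108 tested genes, of which 14 rose and 22 fell, against 6.2% and 5.12% of all tested genes (11.3% in either direction). Feedback and target genes of beta-catenin made up most of the falls: of 15 tested, 12 fell and 0 rose, with Tnfrsf19 (−4.79), Nkd2 (−4.45), Axin2 (−3.78) and Notum (−2.40) lowest, beside the higher Lrp5 and Lrp6. Second, dim probe sets gave −1.31 for Axin2 and −0.30 for Notum. In the intracellular cascade 4 of 24 rose and 1 fell, namely the transcription factor gene Lef1 (−1.66), while its relatives Tcf7l1 (0.98) and Tcf7l2 (0.71) and the Lrp6-binding Caprin2 (0.86) rose. Of 8 tested R-spondin, Lgr and ubiquitin ligase genes, 3 rose and 3 fell. These included Rspo3 (3.19) and Rspo2 (2.29), and Rnf43 (−1.40), whose product removes Frizzleds from the membrane, and Lgr4 (−0.93). Of 10 tested secreted antagonists, 3 rose and 3 fell, with Frzb (1.96) highest and Dkk2 (−2.41), Notum and Wif1 (−1.48) lowest. The wild-type arrays lay well apart for Dkk2 (5.99 and 5.12) and Wif1 (4.25 and 3.42). Wif1 read 2.45 and 2.26 in knockout, close to the 2.34 log2 filter, so the sizes of these falls are less certain.

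In the polarity and calcium branch downstream of Wnt5a and Ror2, 2 of 30 tested genes rose (the formin gene Daam2 0.72, the GTPase gene Rhou 0.61) and 2 fell (the ubiquitin ligase gene Smurf2 −0.91, the transcription factor gene Nfatc4 −0.75), and 26 were not called, a share of calls near the 11.3% of all tested genes. Of 14 other receptor-complex genes, 2 rose and 3 fell. Adgra2, which with Reck serves as a co-receptor for Wnt7 ligands, rose by 0.84, while the Wnt inhibitor gene Apcdd1 (−1.71), Cthrc1 (−1.11), whose product stabilises complexes of Wnts with Frizzleds and Ror2, and the glypican gene Gpc3 (−0.90) fell. Of 13 genes for ligand secretion and handling, 2 fell, again few enough to lie near that share: Trabd2b (−1.71), encoding a membrane protease that clips Wnt proteins, and Scd1 (−1.23), whose desaturase makes the fatty acid that Porcn attaches. Single arrays decided several of these limma calls. Without Mmp14 knockout replicate 1 they were lost for Tcf7l2 (adjusted p = 0.0614), Caprin2 (0.0555), Daam2 (0.0558), Gpc3 (0.0576) and Rhou (0.152). Without wild type replicate 1 they were lost for Daam2 (0.0526), Gpc3 (0.0523) and Rhou (0.0915), and without Mmp14 knockout replicate 2 for Caprin2 (0.053), Daam2 (0.0721) and Rhou (0.0851). When all probe sets were fitted together, 10 genes of these 7 lists were called, 2 higher and 8 lower.

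**Figure D5:**
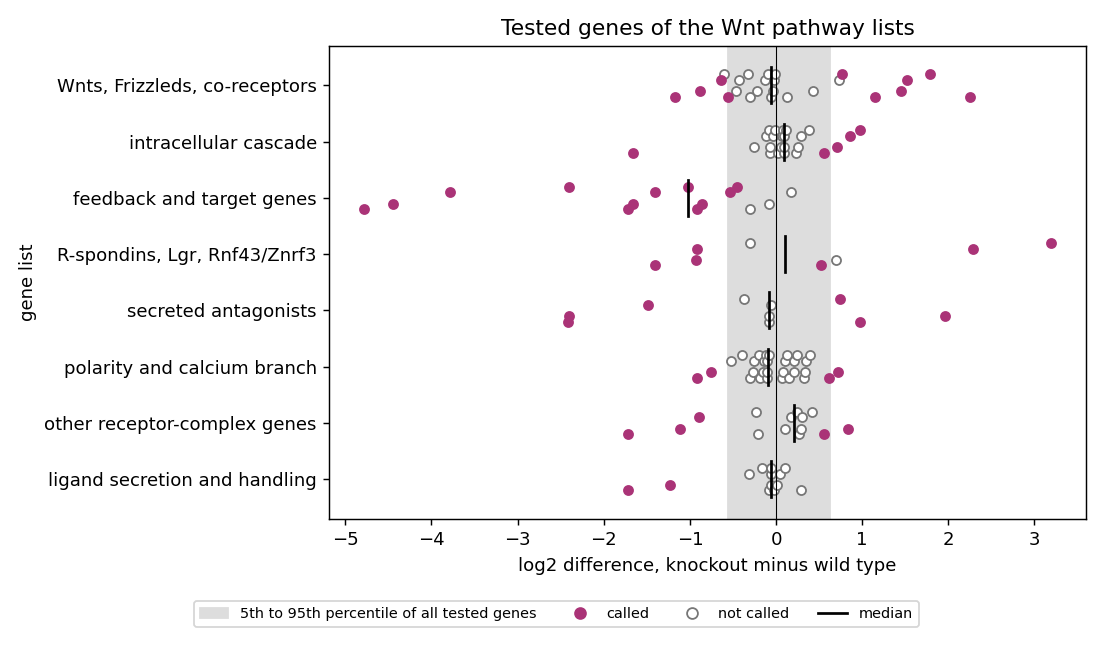
Log2 difference, knockout minus wild type, of each tested gene of the 36-gene set and of the 7 other Wnt pathway lists, with called genes filled, a black line at each list's median and the grey band from −0.55 to 0.63 as above. Feedback and target genes have a median of −1.02, and the Wnts, Frizzleds and co-receptors lie on both sides of 0 around a median of −0.06. A gene in several lists is drawn in each.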

How the data were processed

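The authors deposited 1 table of log2 intensities for 41345 probe sets on 4 arrays. Per the labels' protocols, cDNA was amplified from 10 ng of RNA and 3.75 µg of it biotinylated. Limma and oligo are named in the submitters' processing notes; the normalization and genome build were not given in the sources used here, and the log2 scale was read from the values. Gene names came from the platform annotation (23521 probe sets with 1 symbol, 1814 with several, 16010 with none). The brightest probe set stood for a gene, and genes whose mean reached 2.34 log2 were tested in 1 limma 3.58.1 fit (R 4.3.3, lmFit and eBayes, two-sided, no block, 2 residual degrees of freedom), with Benjamini-Hochberg adjustment over 12708 genes. The fit was run on simulated data with independent errors and variances drawn from its own estimate. That check says nothing about errors shared between arrays. The number of arrays limits the precision: an exact permutation test of 2 against 2 cannot go below p = 0.333. Members and lists were chosen with earlier results of these data known, so their counts are no independent support. Every member is named, with up to 4 called genes of each other list. Same-numbered arrays were not treated as pairs, since the labels do not say what the numbers mark. The correlation of their deviations was −0.04, which cannot settle whether they share an animal, culture or day. Alternatives covered scaling, filters, variance models, probe set choice, the replicate number as a block and leaving out each array. A fit with 1 array left out sets 2 arrays against 1, so it measures no spread within the smaller group.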

Additional observations from a re-analysis of the deposited data

How the results depend on the processing

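Over 13 alternatives, Wnt5a, Fzd5 and Lrp5 were called in all, and Fzd4 and Fzd9 in all 12 that tested them, with differences of 1.59 to 1.99, 1.39 to 1.65, 1.10 to 1.20, 1.95 to 2.54 and 1.31 to 1.59 log2. None of the 10 called genes changed sign, and all 10 stayed called with only the filter on dim genes dropped. The count of called Wnt, Frizzled and co-receptor genes went from 10 to 5 with every probe set in 1 fit, which tests more rows and drops the filter, that of the other pathway lists from 36 to 10, and that of all genes from 1439 to 218. With 1 array left out it ranged from 7 to 10, that of the other lists from 25 to 32 and that of all genes from 687 to 1131. With the replicate block the counts were 10 (Wnt16 gained, Wnt11 lost), 30 and 1057, and the labels do not say what the replicate numbers mark. Dim wild-type signal limits the sizes for Fzd4 and Fzd9. Eif2s3y lost its limma call without a filter (adjusted p = 0.0676) and under the block (0.085). Rhou lost its call without a filter (limma adjusted p = 0.0565) and under the block (0.0696).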
